A study of Arabidopsis thaliana with 6 samples.

Results

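The transcripts described here are those whose signal was lower after 1 h of red light in root tips of dark-grown Arabidopsis seedlings. They were chosen from the 22746 probe sets that are not controls by 4 comparisons of deposited MAS5 signals. Dark 1 and dark 3 each had to be at least 1.5 times red light 1, dark 2 had to be at least 1.5 times red light 2 and red light 3, and all 3 dark signals had to reach 150. The comparisons were met by 79 probe sets. The probe set of HRGP1 was left out because its symbol belongs to a family that was set aside (XTH, EXPA, HRGP, UGT or ATG8), which left 78. Of these 78, 38 have exactly 1 gene in the platform annotation, and 40 are not listed there and stay unnamed.

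All samples were seedlings grown at 23°C in darkness for 7 days on agar with MS salts and sucrose, and 1 cm of root tip was taken. The red light group (n = 3) received 1 h of red light, with a maximum at 630 nm and a fluence rate between 12 and 14 µmol per m2 and s, and the dark group (n = 3) spent the same 1 h in darkness. The labels name no ecotype, mutant or transgene, and each sample pools tissue of several plates. The labels describe the samples of a group as biological replicates, with 1 Affymetrix array for each. The tip held all its cell types, so fewer cells of a type and less RNA per cell cannot be told apart. The root and ER body gene PYK10, the only root tip marker of 9 with a named probe set, had signals of 15318 to 40657.8 over the arrays. Its change was 0.09 (SE 0.24, limma adjusted p = 0.977). The only green shoot marker of 6 with a named probe set, the antenna protein gene LHCB4.1, had signals of 374.8 to 641.1.

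Red light is sensed by phytochromes, which move to the nucleus after photoconversion and bind the PIF transcription factors. PIFs keep a dark programme active in etiolated seedlings, and their loss after light lowers some transcripts as well as raising others. Roots contain phytochromes too, and roots of dark-grown seedlings meet light only when they are exposed, as in this treatment. A transcript can fall within 1 h only if its RNA turns over on that scale.

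The falls cannot be tested on these arrays, because the same signals chose the transcripts. They are given as a description. The rule also rests on few arrays. The GAPDH control probe sets divide the arrays into 2 classes: the signal at the 3' end was 20.2 to 26.2 times that at the 5' end in dark 1, dark 3 and red light 1 (high-ratio class), against 0.981 to 1.45 times in the other arrays (low-ratio class). The rule compares within each class, so its high-ratio comparisons both rest on red light 1 and its low-ratio comparisons both rest on dark 2. A low signal in red light 1 together with a high signal in dark 2 is enough to meet it. Red light 1 was the lowest array for 49 of the 78 transcripts, and dark 2 was the highest for 56.

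The fall is given as the mean of the 4 log2 ratios of dark over red light that the rule names. It ran from 0.70 to 5.66, with a median of 1.08 (2.11-fold) and quartiles of 0.88 and 1.43. A fall of at least 1 was found for 46 transcripts, of at least 2 for 10 and of at least 3 for 5. Most falls were moderate, with a short tail of large ones. For replicates of the same group and class, the median distance was 0.20 between dark 1 and dark 3 and 0.29 between red light 2 and red light 3 on the log2 scale, against 0.31 and 0.26 over all 13647 tested probe sets. The smaller of a transcript's class falls exceeded both of its replicate distances for 75 of the 78. The rule sets a minimum for these falls on the same arrays, so nothing is read from that count.

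**Figure D1:**
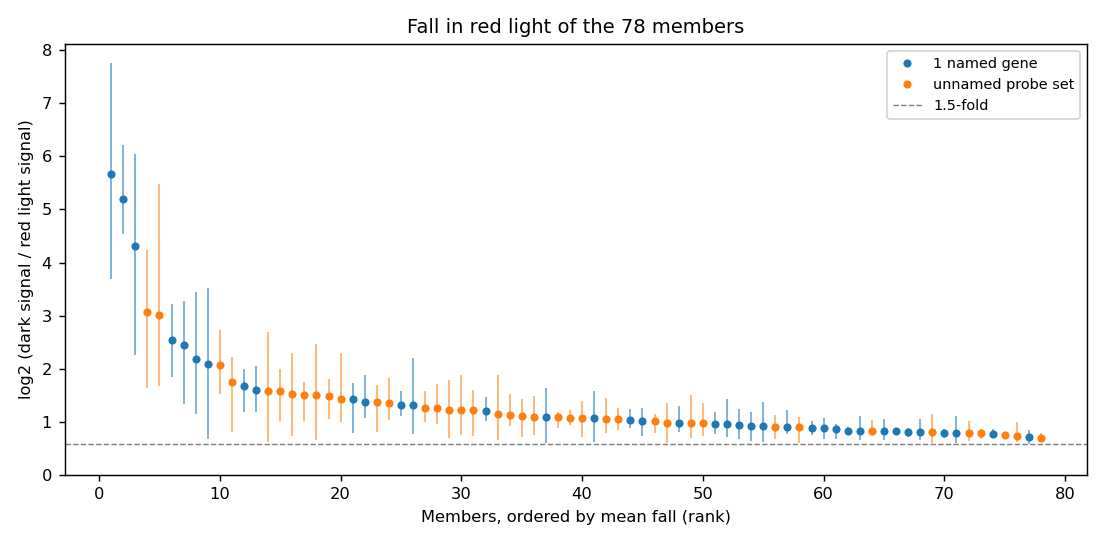
Fall of each of the 78 transcripts, as log2 of dark over red light signal (vertical axis), in order of mean fall (horizontal axis). Points are means of the 4 ratios of the rule, lines run from the smallest to the largest of them, colours separate the 38 named from the 40 unnamed probe sets, and the dashed line is 1.5-fold. The first 5 transcripts have mean falls of 3.01 to 5.66 and the rest lie at 2.53 or below.

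Across classes the dark and red light signals did not overlap for 43 of the 78 transcripts. Over all 22746 probe sets the dark signals lay above all red light signals for 4.31%. The rule used this contrast, so nothing is read from the difference. For 19 of the 43, 9 of them named, even the lowest dark signal was at least 1.5 times the highest red light signal. The share of all probe sets that far apart was not counted. Such a distance meets all comparisons of the rule, so nothing is read from that count either. The same holds for the counts without overlap given below for groups of genes. The fit across all tested probe sets (limma, red light minus dark, with array class as a term) called 6 probe sets lower, 0.0440% of 13647, and all 6 are in this set. Those are AT5G23830, AT2G43590, ZW9, AT2G39210, AT4G15390 and the unnamed probe set 258059_at. The signals that chose the set are the ones tested, and these calls give it no support. With group as the only term limma called 0 lower, with 158 lower at an unadjusted p under 0.05. Of the 78, 76 passed the filter on dim probe sets, and AT5G45500 and BGLU19 did not.

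The largest falls belonged to AT5G45500, AT5G23830 and BGLU19. The signal of AT5G45500 was 329.0, 1061.4 and 237.3 in dark 1, 2 and 3 and 18.4, 4.9 and 8.1 in red light 1, 2 and 3. The signal of AT5G23830, whose product has an ML lipid-recognition domain, was 457.3, 2768.0 and 482.7 in darkness against 19.8, 37.1 and 65.6 in red light. The signal of BGLU19, a beta-glucosidase of the glycoside hydrolase family that also holds PYK10, was 292.9, 245.2 and 514.6 in darkness against 61.3, 4.2 and 3.7 in red light. All 3 genes were dim in every red light array and at least 4.00 times brighter in every dark array. Their mean falls were 5.66 (50.6-fold), 5.19 (36.5-fold) and 4.31 (19.8-fold). MAS5 detection calls were not used here, and signals of a few units have a poorly known logarithm. With 16 added to every signal the falls were 20.3-fold, 24.0-fold and 8.28-fold, so the order of AT5G45500 and AT5G23830 turned. The distance between dark 1 and dark 3 was 0.47, 0.08 and 0.81 for these genes, and between red light 2 and red light 3 it was 0.73, 0.82 and 0.18.

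**Figure D2:**
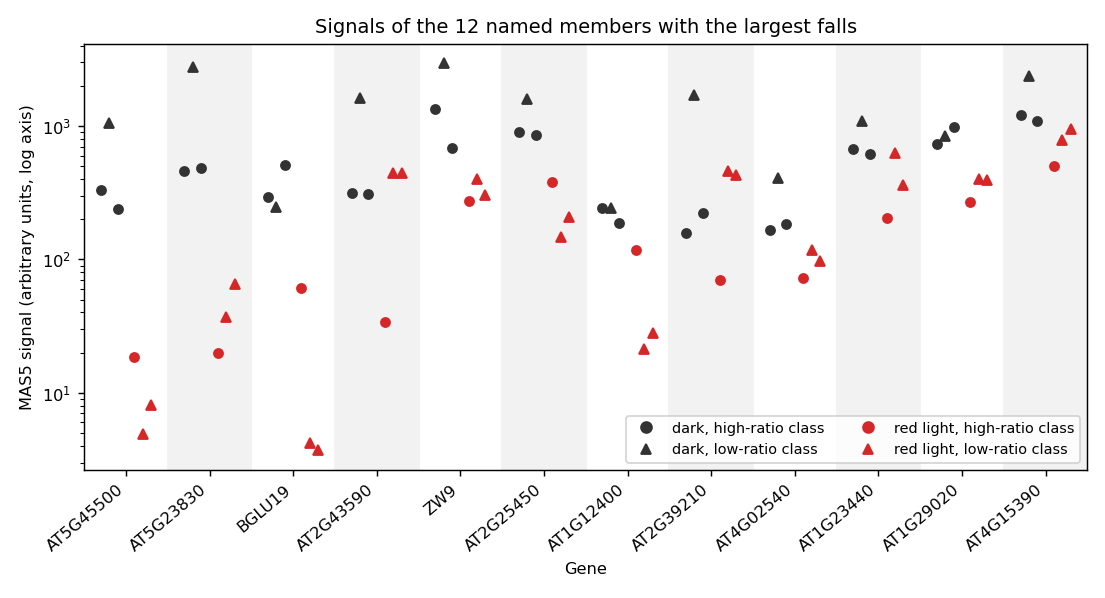
MAS5 signals (vertical log axis, arbitrary units) of the 12 named transcripts with the largest falls (horizontal axis), 1 point per array. Black is dark and red is red light, circles are arrays of the high-ratio class and triangles arrays of the low-ratio class. The dark points of AT5G45500, AT5G23830 and BGLU19 lie far above their red light points, whereas for AT2G43590, AT2G39210 and AT1G23440 the groups overlap, and every dark point lies above the red light points of the same shape.

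Enzymes of secondary and sugar metabolism and of the wall formed 1 group of 7 named genes, grouped after their values were seen, with falls of 0.71 to 4.31 and a median of 0.96. BGLU19 heads it. AT2G25450 encodes a 2-oxoglutarate-dependent dioxygenase of glucosinolate metabolism, which hydroxylates the side chain of an aliphatic glucosinolate. The signal of AT2G25450 was 895.3, 1596.9 and 851.0 in darkness against 383.1, 147.5 and 209.2 in red light. Every dark array was at least 2.22 times every red light array, and the fall was 2.19 (4.55-fold), with 1.19 in the high-ratio and 3.18 in the low-ratio class. AT4G15390 belongs to the BAHD acyltransferases, which acylate alcohols and amines of secondary metabolism. The signal of AT4G15390 was 1218.7, 2359.2 and 1087.9 in darkness against 505.4, 791.3 and 943.5 in red light. The groups did not overlap, and the falls in the classes, 1.19 and 1.45, were close to each other.

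The other 4 enzymes fell less. The signal of AT1G59960, an aldo-keto reductase, was 332.0, 567.6 and 447.0 in darkness against 196.0, 285.2 and 301.2 in red light, without overlap. Its falls in the classes were 0.97 and 0.95. The flavin monooxygenase AT1G12160 had signals of 196.1, 442.5 and 187.7 in darkness against 111.8, 228.4 and 219.1 in red light. Here the groups overlapped, because dark 1 and dark 3 were below red light 2 and red light 3. cwINV6, a fructan exohydrolase of the cell wall invertase family, gave 474.2, 875.5 and 383.1 in darkness against 225.9, 429.9 and 550.9 in red light. Its groups overlapped too, with red light 3 above both dark arrays of the other class. AT3G47010, a glycosyl hydrolase, lay just inside the rule, with 262.1, 363.9 and 313.8 in darkness, 174.2, 231.3 and 215.5 under red light and a fall of 0.71.

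A further 5 genes encode a chitinase-family protein, peroxidases, an NADPH oxidase and a dirigent-like protein, products that act in the wall or apoplast. Their falls ran from 0.81 to 2.53 with a median of 1.03, and the groups did not overlap for 1 of the 5. The signal of AT2G43590, the chitinase-family gene, was 312.5, 1609.9 and 310.8 in darkness against 33.7, 446.1 and 443.2 in red light. It fell by 3.21 within the high-ratio class and by 1.86 within the low-ratio class, and yet dark 1 and dark 3 lay below red light 2 and red light 3. The signal of AT1G30870, a class III peroxidase, was 855.8, 3237.2 and 984.3 in darkness against 318.9, 2012.8 and 2132.0 in red light. The overlap was the same here, with falls of 1.53 and 0.64.

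The signal of AT1G19230, an NADPH oxidase of the respiratory burst family that makes superoxide, was 180.5, 366.4 and 153.3 in darkness against 92.9, 152.4 and 166.0 in red light. The signal of AT2G41480 (peroxidase 25) was 513.0, 229.9 and 502.2 in darkness against 317.3, 130.6 and 110.6 in red light, and it was brighter in the high-ratio class, the reverse of AT1G30870. The groups overlapped for both. The signal of AT4G11210, of the dirigent family, was 764.2, 1326.9 and 694.8 in darkness against 374.8, 673.3 and 561.8 in red light. Its groups just failed to overlap, and its falls in the classes were 0.96 and 1.11.

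Besides AT5G23830, 5 genes act at membranes or bind metals or calcium, and the 6 together had falls of 0.77 to 5.19 with a median of 1.34. The signal of AT2G39210, a nodulin-like protein of the major facilitator superfamily of transporters, was 159.0, 1705.5 and 221.7 in darkness against 70.2, 458.3 and 429.8 in red light. As for AT2G43590, the groups overlapped, and the fall was 1.68 with array class as a term and 0.71 with group as the only term (2.53 and 1.52 for AT2G43590). The signal of AT1G29020, an EF-hand protein of the kind that binds calcium, was 737.2, 846.0 and 985.4 in darkness against 268.0, 400.6 and 396.4 in red light. Every dark array of AT1G29020 was at least 1.84 times every red light array, and its class falls were 1.67 and 1.09.

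The signal of AT1G48550, a protein of the VPS26 family of endosomal sorting, was 175.8, 312.1 and 307.5 in darkness against 66.5, 184.0 and 172.5 in red light, where dark 1 fell among the red light arrays. The signal of AT3G07600, with a heavy-metal-binding domain, was 570.6, 348.4 and 397.7 in darkness against 192.0, 167.8 and 226.6 in red light. Its groups were clearly apart, with class falls of 1.31 and 0.84. The signal of AT3G48940, a remorin of plasma-membrane domains, was 174.7, 465.7 and 165.6 in darkness against 101.7, 256.8 and 276.7 in red light, with overlap.

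ZW9, of the TRAF-like family, and several genes for which no role is stated here also fell without overlap between the groups. The signal of ZW9 was 1348.3, 2951.4 and 685.8 in darkness against 271.8, 398.4 and 305.2 in red light, a fall of 2.45 (5.47-fold). The signal of AT1G12400 was 244.0, 244.6 and 187.3 in darkness against 116.8, 21.3 and 28.2 in red light. Most of that fall came from the low-ratio class, 3.32 against 0.87. The signal of AT4G02540 was 166.0, 404.6 and 185.2 in darkness against 73.1, 117.5 and 97.6 in red light. The signal of AT5G27990 was 229.2, 413.3 and 196.8 in darkness against 97.5, 191.3 and 150.3 in red light. In AT5G27990 the lowest dark array was barely above the highest red light array.

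The steadiest of the named genes across arrays, picked out after its values were seen, was AT3G01730. The signal of AT3G01730 was 262.1, 259.8 and 259.4 in darkness against 150.3, 139.9 and 144.7 in red light. Its fall of 0.83 (1.78-fold) was 0.79 in the high-ratio and 0.87 in the low-ratio class, and the classes themselves differed by 0.04. AT1G24320 gave 1125.9, 499.8 and 800.1 in darkness against 456.0, 265.7 and 271.1 in red light, also without overlap. AT5G36270, which the RefSeq table lists as a transcribed pseudogene, gave 197.7, 348.8 and 214.5 in darkness against 120.3, 194.0 and 130.3 in red light. In all, the 17 named genes with no stated role, ZW9 and AT5G45500 among them, had falls of 0.79 to 5.66 and a median of 0.92, and 13 of them showed no overlap. The pentatricopeptide-repeat genes AT5G15980 and AT2G06000, of a family that acts on organelle RNA, fell by 0.92 and 0.82, with overlap only for AT5G15980.

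The 40 unnamed probe sets had falls of 0.70 to 3.06 with a median of 1.11, and 20 of them showed no overlap. The signal of 258059_at was 504.1, 1420.0 and 243.9 in darkness against 78.1, 110.8 and 75.5 in red light, a fall of 3.06 (8.35-fold). The signal of 248978_at was 192.4, 435.5 and 241.2 in darkness against 60.6, 9.8 and 58.5 in red light. In 248978_at red light 2 and red light 3 differed by 2.58, more than its fall of 1.83 in the high-ratio class. Of the 78 probe sets, 5 carry the suffix _s_at and 1 the suffix _x_at, which mark probes shared with other transcripts, and all 6 are unnamed.

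The falls within the 2 classes differed for single genes but not in 1 direction over the set. The fall was larger in the high-ratio class for 37 transcripts and in the low-ratio class for 41, with medians of 1.11 and 1.01. For 10 transcripts the fall in 1 class was more than 2 times that in the other, among them BGLU19 (2.66 and 5.96), AT2G25450, AT1G12400, AT1G48550 and AT1G30870. These differences were not tested.

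**Figure D3:**
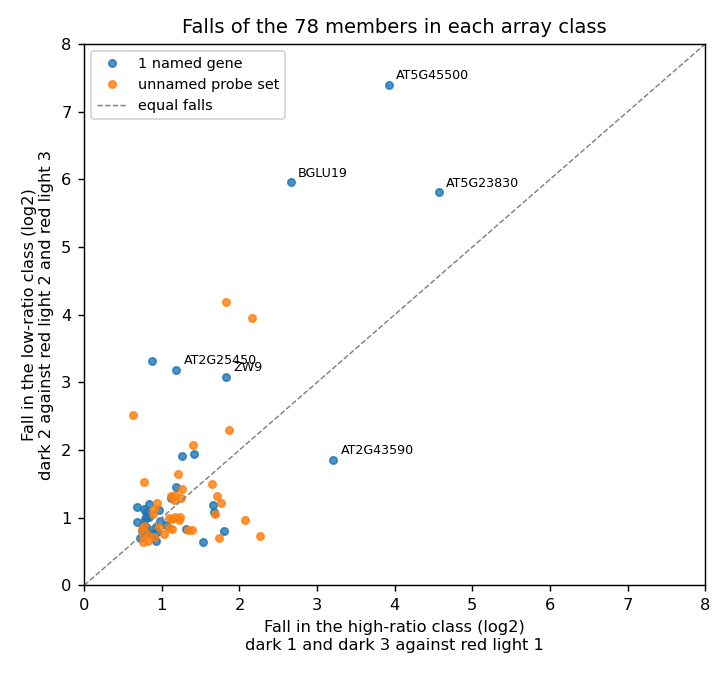
Fall of each of the 78 transcripts in the high-ratio class (horizontal axis, log2 of dark 1 and dark 3 over red light 1) and in the low-ratio class (vertical axis, log2 of dark 2 over red light 2 and red light 3). Each point is 1 transcript, blue where named and orange where not, and the dashed line marks equal falls. AT5G45500, BGLU19 and AT5G23830 stand apart above the line, and AT2G43590 below it, while most points lie at falls of 0.62 to 2 in both classes.

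Signals of the set differed between the array classes as well. Of the 76 tested, 45 differed between the classes in limma, 36 lower and 9 higher in the high-ratio class, where 36.8% of all tested probe sets differed and 21.9% were lower. The median class difference was -0.67 over the 78 and -0.07 over all tested probe sets. The rule favours a low red light 1 and a high dark 2, and both lower this difference, so nothing is read from it. With the replicate block added beside array class, limma called 0 of the 76, with 22 at an unadjusted p under 0.05. Only replicate number 3 holds arrays of both classes, so that fit has little to estimate a class difference from, and nothing is read from the 0. The largest class differences among the named and tested transcripts were in AT2G43590 (-3.05), AT2G39210 (-2.92) and AT1G30870 (-2.26), whose groups overlap. The part of target quality in the falls was not tested.

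AT1G23440, which encodes a pyroglutamyl-peptidase-like enzyme of protein turnover, is the only named gene of the set with a second probe set that the rule did not use. On the probe set that met the rule, 262422_at, its signal was 676.7, 1085.7 and 612.0 in darkness against 203.6, 628.4 and 364.1 in red light, a fall of 1.42 (2.68-fold). On the other, 263015_at, the signal was 819.9, 2464.2 and 1106.9 in darkness against 794.4, 3924.7 and 2384.8 in red light. There the change in red light was 0.03 (SE 0.25, limma adjusted p = 0.995). With group as the only term it was 0.58. The fall of AT1G23440 was thus not seen on its second probe set.

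**Figure D4:**
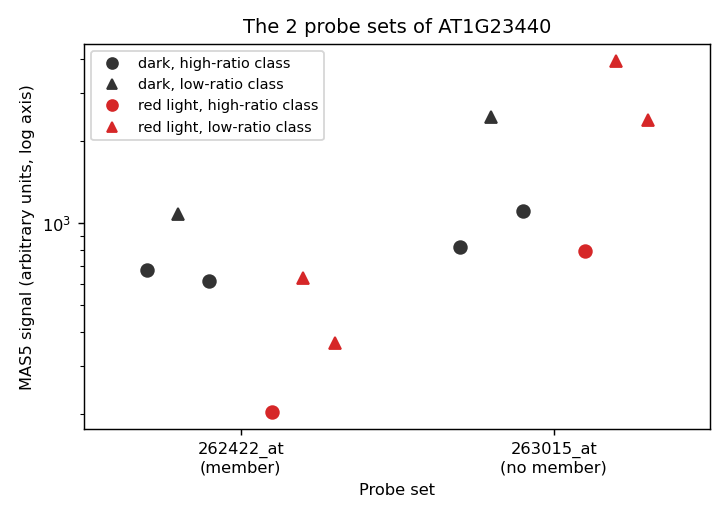
MAS5 signals (vertical log axis, arbitrary units) of the 2 probe sets of AT1G23440 (horizontal axis), 1 point per array. Colours separate dark from red light and shapes the array classes. On 262422_at each red light point lies below the dark points of its class. On 263015_at red light 2 (3924.7) lies above dark 2, while red light 1 (794.4) and red light 3 (2384.8) lie just below the dark points of their classes.

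Genes next to the named transcripts gave a comparison that the rule did not use. Up to 2 protein-coding genes on each side were taken in the gene order of TAIR10.1, and 71 probe sets of such neighbours were named, 47 of them bright enough to be tested, beside 29 of the 38 genes. None of these named probe sets belonged to the set, but AT5G45510 missed it only by its dark 1 signal. The unnamed probe sets of the set have no gene here, so whether any of them stands for a neighbouring gene is not known. Limma called 0 of the 47 (0.125% of all tested probe sets were called), with a smallest adjusted p of 0.562, and 7 had an unadjusted p under 0.05, which 6.88% of all tested probe sets had. Their median change was -0.09, against -0.03 over all tested probe sets, and 63.8% lay below 0, against 54.2%.

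Neighbours of the genes with the largest falls lay on both sides of 0. AT5G45510, next to AT5G45500, had signals of 112.3, 2887.8 and 439.6 in darkness against 59.6, 1230.5 and 749.3 in red light. Its change was -1.74 (SE 0.52), with -1.90 in the high-ratio and -1.59 in the low-ratio class. AT5G45510 thus met every fold comparison of the rule, and only its dark 1 signal, below 150, kept it out of the set. AT5G45480, 2 places from AT5G45500 on the other side, had a change of -1.04 (SE 0.47). AT5G23840, next to AT5G23830 and also an ML-domain gene, had signals of 1314.7, 2501.0 and 1975.6 in darkness against 480.9, 2470.9 and 2571.6 in red light. Its change of -0.87 (SE 0.37) was -1.74 in the high-ratio and 0.01 in the low-ratio class, and red light 1 was its lowest array. AT5G23850, on the far side of AT5G23840, had a change of 0.23 (SE 0.31), and AT3G21360, next to BGLU19, of -0.43 (SE 0.38). The chitinase gene CHI, 2 places from AT2G43590, had a change of -0.70 (SE 0.27), and AT2G43600 and AT2G43610, on its other side, of 0.26 (SE 0.38) and -0.37 (SE 0.22). The limma adjusted p-values of these 8 ran from 0.562 to 0.939. Without dark 2 only the high-ratio class holds both groups, so the change rests on the single array red light 1, whose spread is taken from the other arrays. Limma then called AT5G45480 (adjusted p = 0.0146) and AT5G23840 (adjusted p = 0.00877).

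**Figure D5:**
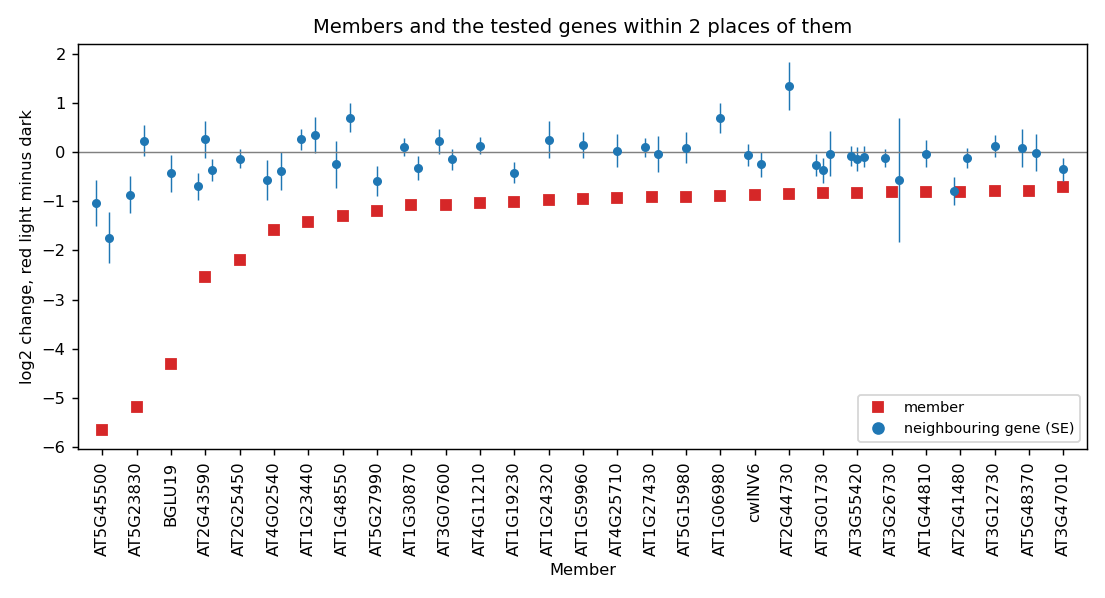
Change in red light (vertical axis, log2 of red light minus dark) of named transcripts of the set (red squares, horizontal axis in order of fall) and of the tested genes within 2 places of each (blue circles, with SE from limma). The squares reach down to a fall of 5.66 (AT5G45500), while the circles lie between -1.74 and 1.34 and mostly around 0.

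Relatives of BGLU19 were taken as the genes whose symbol begins with BGLU, which leaves out PYK10. Of the BGLU beta-glucosidases other than BGLU19, 7 were tested and limma called 0, with 0 at an unadjusted p under 0.05. Their median change was 0.20, and BGLU16 (-0.38, SE 0.22) and BGLU44 (0.45, SE 0.42) were the extremes. Peroxidases were searched by symbol and synonym, which found AT2G41480 but not AT1G30870. The search also missed the peroxidase AT4G26010 of the root hair list, whose change was -0.62 (SE 0.23). It went by name and not by family, and took in SAPX and PRXIIF. Those found therefore do not stand for the class III peroxidases. Outside the set, 7 of those found were tested and limma called 0, with 1 at an unadjusted p under 0.05. Only 2 of the 7 had a change below 0, and their median was 0.20. The extremes were PRX52 (-0.24, SE 0.43) and AT5G64120 (0.61, SE 0.28).

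Gene lists for the pathways of this tissue could be examined only in small part. The 12 lists hold 204 genes, of which 24 have a named probe set. Outside the set, 17 of their probe sets were tested, and limma called 0, with a smallest adjusted p of 0.439. An unadjusted p under 0.05 was found for 5 of the 17 and for 6.88% of all tested probe sets. Of the 17, 16 had a change below 0, as had 54.2% of all tested probe sets. Their median was -0.42, against -0.03 over all tested probe sets. The lists were chosen with earlier results of these data known, and 5 of the 17 are root hair genes. Nothing is therefore read from these differences. The glucosinolate list has 29 genes, and AT2G25450 was the only transcript of the set in any list. Of the others in that list, UGT74B1, a glucosyltransferase of the core pathway, had a change of -0.42 (SE 0.22) and PYK10 of 0.09. AOP3, BCAT4 and AT2G31790 were too dim to be tested, with signals of at most 112.3.

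Of the root hair list, 5 of 21 genes were tested, all 5 had a change below 0, and limma called 0, with 3 at an unadjusted p under 0.05 and a median of -0.81. EXPA7, EXPA18 and XTH26 belong to families that the rule sets aside. None of them met its comparisons either, since dark 2 was below 1.5 times red light 2 in each. EXPA7 had signals of 139.6, 588.1 and 164.5 in darkness against 16.6, 600.4 and 668.2 in red light, with a change of -1.54 (SE 0.67). All 3 arrays of the high-ratio class were low, red light 1 the most. The signal of XTH26 was 789.9, 1163.2 and 565.4 in darkness against 302.0, 867.6 and 812.4 in red light, with a change of -0.81 (SE 0.24). The peroxidase AT4G26010 had a change of -0.62 (SE 0.23), and was brighter in red light 3 (4361.6) than in dark 1 or dark 3 (2087.7 and 1957.2). The signal of EXPA18 was 478.8, 1720.5 and 647.4 in darkness against 155.7, 1704.3 and 1390.5 in red light, with a change of -0.999 (SE 0.35). Without dark 2, where the change again rests on red light 1 as a single array, limma called EXPA7 (adjusted p = 0.00242) and EXPA18 (adjusted p = 0.00912) lower.

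In the other lists, 3 of 22 iron uptake genes were tested and all had changes below 0, with a median of -0.57. The iron regulator PYE had a change of -0.67 (SE 0.36) and AT3G13610, a dioxygenase of coumarin synthesis, of -0.57 (SE 0.28). Both came from the high-ratio class, where red light 1 (141.9 and 908.4) was the lowest array of each gene. In the low-ratio class, dark 2 of PYE (247.6) lay below red light 2 (302.2) and red light 3 (247.9). Dark 2 of AT3G13610 (2818.3) lay between red light 3 (2107.3) and red light 2 (3396.5). BHLH101, the remaining gene, changed by only -0.06 (SE 0.46). Of 22 auxin genes 2 were tested, WES1 with -0.46 (SE 0.19) and GH3.3 with -0.31 (SE 0.38), both of enzymes that conjugate auxin to amino acids. Of 18 genes known to answer touch or handling 2 were tested, STZ with -0.97 (SE 0.35) and WRKY53 with -0.02 (SE 0.31). FHL, which helps phytochrome A into the nucleus, had a change of -0.25 (SE 0.39), and the ethylene regulator EIN3 of -0.14. The lists for endodermis and suberin, jasmonate and defence, and dark and sugar starvation had no tested gene.

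At the edge of the rule the values on either side were alike. Just inside, the smallest of the 4 ratios was 1.505 for AT3G47010, 1.51 for AT5G48370 and 1.52 for AT1G30870, with mean falls of 0.71, 0.79 and 1.08. Just outside, it was 1.499 for AT5G06800, 1.4985 for the unnamed probe set 262374_s_at and 1.49 for AT3G57160, with mean falls of 0.76, 0.96 and 0.77. The same rule turned round, with red light above dark and all red light signals of at least 150, was met by 47 probe sets.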

How the data were processed

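The values deposited by the authors are linear intensities, 1 for each probe set on each of 6 arrays. MAS5 made them, according to the submitters' processing notes. The sources used here do not give its version, and detection calls were not used. Every array had been scaled to nearly the same 2% trimmed mean, 500.04 to 500.06. Gene names came from the platform annotation, updated through RefSeq (TAIR10.1, names and gene order only): 13513 of 22746 probe sets have 1 gene (13436 with a locus tag), 503 several, and 8730 are not listed. Array class was taken from the GAPDH controls at the widest gap in log2 ratio.

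Log2 signals without a pseudocount, above the 40th percentile of the mean (a signal of 88.4), were fitted with lmFit of limma 3.58.1 in R 4.3.3 (robust eBayes with trend, which uses statmod 1.5.0) on group and array class, with 3 residual degrees of freedom, and adjusted by Benjamini-Hochberg at 0.05, 2-sided. The median SE of a log2 change was 0.27, and 3 arrays per group bound the precision. The fit was tested on simulated data.

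The transcripts, lists, tests and alternatives were chosen with earlier results of these data known. The naming rule took the 20 largest falls among named genes, list genes, genes with several probe sets and those at the threshold, and outside the set up to 2 genes per list with the largest change. Its part on families needed product names and was not applied, and AT5G36270, AT1G12160, cwINV6, AT5G15980, AT2G06000, AT2G41480, AT3G48940 and AT3G01730 were named after their values were seen, as were the role groups, the genes beside transcripts of the set, the family relatives and further list genes. Promoter motifs were not analysed here.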

Additional observations from a re-analysis of the deposited data

How the results depend on the processing

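The 78 transcripts became 19 with a fold of at least 2, 282 with dark at least 25% above red light, 40 with dark signals of at least 300, and 19 with every dark signal at least 1.5 times every red light signal. With quantile scaling 76 met the rule, 66 of them shared. Leaving out dark 1, dark 3, red light 2 or red light 3 gave 123 to 149, since fewer comparisons had to be met; red light 1 and dark 2 cannot be left out. All 38 named falls stayed above 0 in 11 alternatives, with 317 of 418 values moved by less than 1 SD of replicates. The rule chose these genes for falls on the same signals, so nothing is read from their sign. With group as the only term, or with a replicate block in place of array class, the lowest fall was 0.30 (AT3G48940).

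Limma called 0 lower and 0 higher with group alone or with a replicate block in place of array class (158 and 288 lower at an unadjusted p under 0.05), 5 and 12 with the replicate block added, 1 and 4 with plain eBayes, and 17 and 21 at an adjusted p of 0.1. The calls ran from 2 to 189 lower and from 5 to 83 higher when each array was left out in turn. Omitting red light 3 gave 2 lower. Omitting red light 1 gave 40 lower and 31 higher, which rest on dark 2 as the single dark array of its class. Omitting dark 2 gave 189 lower and 83 higher, which rest on red light 1 as the single red light array of its class. Omitting red light 2 gave 3 lower, and omitting dark 3 gave 10 lower and 18 higher. Class differences in the set numbered 0 with the replicate block added, where only replicate number 3 holds both classes. They numbered 27 to 45 without 1 array (27 without dark 2, 29 without red light 1). Calls among list genes and among neighbours ran from 0 to 2 each, with 2 only without dark 2. The causes were not tested, and signals of a few units limit the largest falls. The numbers of the replicate block were not taken to pair the samples. Deviations from the group means correlated at 0.58, 0.64 and -0.32 for numbers 1, 2 and 3. Array class was left in these deviations, and only number 3 holds arrays of both classes. The correlations therefore cannot decide whether the numbers pair the samples.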
